A study of Homo sapiens with 30 samples.

Results

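The genes described here are the collagens, the laminins and the integrins, with fibronectin: the proteins that build the extracellular matrix of human embryonic stem cells and the receptors that hold the cells to it. All rows of both RNA count tables were taken whose symbol names a collagen chain (COL, a number, A, a number), a laminin chain (LAMA, LAMB or LAMC and a number), an integrin subunit (ITGA or ITGB and a number or letter) or fibronectin (FN1), if they had 10 or more counts in 2 or more libraries. This gave 74 of the 27348 genes present in both tables: 41 collagens, 11 laminins, 21 integrin subunits and FN1. Of 84 genes with such names, 10 did not reach the count. These were COL3A1, COL6A5, COL19A1, LAMB4, ITGAD, ITGAL, ITGAX, ITGB6, ITGB7 and ITGBL1, and ITGB6 had no count in any library. Another 18 genes with similar names were left out (antisense or divergent transcripts, pseudogenes and proteins that bind an integrin). LAMC1, LAMA4, LAMA5, COL1A2, COL4A2, COL5A1, COL18A1, ITGA6, ITGA9 and ITGB2 each have such an antisense gene in the tables, and since the strand setting of the counting is not given, reads of the 2 strands cannot be told apart there. COL20A1 lay just inside the count rule, with 10 or more counts in 2 libraries, and COL6A5 and ITGAL lay just outside it, with at most 9 counts.

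Collagens are triple helices of chains made by separate genes. Fibrillar collagens form the fibres of connective tissue, type IV collagens form the sheet-like network of basement membranes, and FACIT collagens attach to the surface of fibres. Laminins are trimers of an alpha, a beta and a gamma chain and are the other main polymer of basement membranes. Integrins are receptors of an alpha and a beta subunit that cross the cell membrane. By their ligands they fall into receptors for laminin, for collagen and for proteins with an RGD motif such as fibronectin and vitronectin. Human pluripotent stem cells are epithelial cells that are grown on laminin, vitronectin or basement membrane extract and attach to them through integrins.

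The cells were RUES2, an established human embryonic stem cell line, kept in TeSR E7 medium with a ROCK inhibitor, which all 8 groups share. At 24 h the groups were E7 (no factor), E7_CPI (CPI-203 at 1 µM), WNT (Wnt3a at 100 ng/mL) and WNT_CPI (both). At 48 h they were E7_ACT (no factor on day 1, then Activin A at 10 ng/mL), WNT_E7 (Wnt3a, then medium alone), WNT_ACT (Wnt3a, then Activin A) and WNT_CPI_ACT (day 1 as WNT_CPI, day 2 as WNT_ACT). CPI-203 blocks the BET bromodomain proteins, which bind acetylated histones and promote transcription, while Wnt3a and Activin A are the signals that lead pluripotent cells toward mesoderm and endoderm. Each group had 2 RNA libraries. The labels do not say that replicates came from separate cultures, so a p-value here speaks for the spread of these libraries, which may be technical.

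Library totals ran from 36268324 to 43347733 counts, and the 74 genes took 0.376% to 0.531% of them. The libraries labelled E7_CPI stood apart from the rest in 2 ways. As deposited, the values of E7_CPI replicate 1 did not follow the gene order of their own table (Spearman correlation with every other library at most 0.00712 in size), and set against the genes of the replicate 2 table, in its order, they correlated with the other libraries at 0.954 to 0.986. Read so, they lay close to E7_CPI replicate 2: a chi-square test of the counts of the pair gave 3.25 per degree of freedom, against 96.9 to 164 in the other 7 pairs. The pair differed by more than counting noise and was kept as 2 libraries. Whether E7_CPI replicate 1 is a separate sample or the same RNA sequenced again is not given in the sources used here. In the second case E7_CPI has an n of 1, and its SEs and adjusted p-values on 16 libraries are too small. The values on 15 libraries, with E7_CPI replicate 1 left out, do not count 1 RNA as 2 libraries. They still set 1 E7_CPI library against E7 libraries of both replicate numbers. Without the block, a difference between the replicate numbers can therefore enter the E7_CPI fold changes as well as their SEs. The spread is estimated over all groups in 1 model. If the E7_CPI pair is 1 RNA, the SEs and adjusted p-values of comparisons without E7_CPI may therefore be too small as well. Results that rest on E7_CPI, and the number of members called in the other comparisons, are also given on these 15 libraries. In the other 7 groups, libraries with the same replicate number deviated together (r = 0.537 to 0.885 in 21 pairs of groups, over 14059 genes), so values from a blocked fit, with a term for the replicate number and on the same 15 libraries, are given where they change a call.

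The summed level of 7 markers of pluripotent stem cells ran from 4255 to 8505 CPM (counts in each 1000000 of the TMM-adjusted library total). Most of the sum came from LIN28A and PODXL, and not every marker was high in every group. NANOG stood at 71.6 and 112 CPM in E7 (values are replicate 1 and replicate 2 throughout), at 138 and 196 in WNT, at 0.933 and 0.809 in E7_CPI and at 1.22 and 1.31 in WNT_CPI. The 8 fibroblast markers summed to 193 to 880 CPM. Most of it was THY1 (147 to 813 CPM), which pluripotent stem cells are also known to carry. TAGLN ran from 19.3 to 164 CPM and PDGFRB from 2.84 to 29.6, POSTN and TWIST2 reached 5.65 and 2.69, LUM reached 0.0274, and DCN and FAP had 0 counts in every library. The 5 endothelial and blood markers summed to 22.8 to 231 CPM, most of it KDR, while PECAM1, CDH5 and PTPRC were below 1 CPM in every library. The 4 endoderm markers summed to 195 and 47.2 CPM in WNT_ACT replicates 1 and 2, to 21.99 and 1.04 in those of WNT_CPI_ACT and to at most 9.33 elsewhere. The 6 trophoblast markers summed to 0.573 to 13.7 CPM. In bulk RNA, fewer cells of a type and less RNA per cell cannot be told apart.

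The plot of all members by library shows where each gene was high or low. Summed over the 74, the levels were 4105 and 3807 CPM in E7 and 4748 and 4699 in E7_CPI. With Wnt3a they were 4193 and 4295 in WNT and 4974 and 4492 in WNT_CPI. At 48 h they were 4772 and 4542 in E7_ACT, 4170.4 and 4150.5 in WNT_E7, 5291 and 5128 in WNT_ACT and 5194 and 4489 in WNT_CPI_ACT. CPM are not divided by gene length, so levels are compared between groups and not between genes. The flattest member was ITGAE, which pairs with ITGB7 in lymphocytes: its highest group mean (WNT_CPI_ACT, 16.1 CPM) was 1.29 times its lowest (WNT_E7, 12.5 CPM). At the other end, the means of COL8A1 spanned 21.8-fold on at most 22 counts in a library, those of COL2A1 16.8-fold and those of COL12A1, a FACIT collagen, 16.6-fold, while ITGA8 had no count in E7 and so no ratio. E7_ACT was the group with the highest mean for 17 members, WNT_CPI for 13, and WNT_ACT and WNT_CPI_ACT for 10 each. E7 was highest for 9, E7_CPI for 8, WNT_E7 for 6 and WNT for 1. In 19 members the lowest library of the highest group lay above both libraries of the next. These counts were not made over all genes and are not read as particular to the members.

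**Figure D1:**
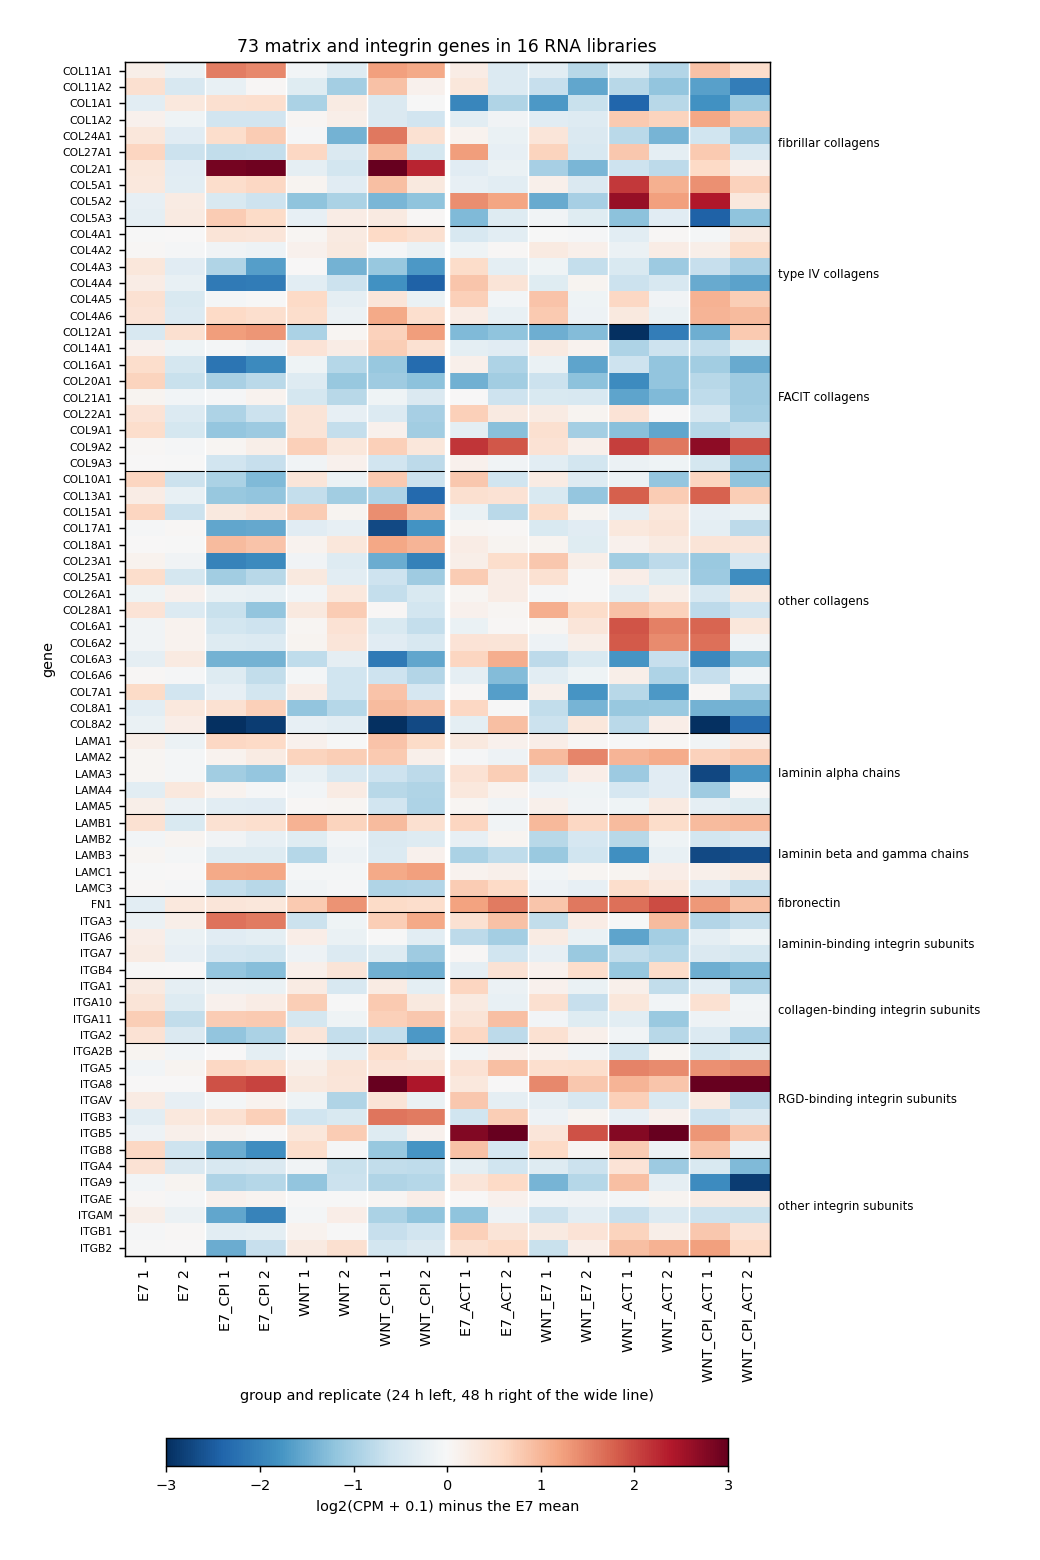
Each row is 1 of 73 members and each column a library, and colour gives log2(CPM + 0.1) minus the mean of the 2 E7 libraries, from -3 (blue) to 3 (red). COL2A1, LAMC1, ITGA3 and ITGA8 are red in the 4 CPI-203 libraries at 24 h, where COL8A2, COL4A4, COL17A1 and COL23A1 are blue, and ITGB5 is dark red in the E7_ACT and WNT_ACT libraries.

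The first comparison asks what 1 day of Wnt3a did to these genes. Of 74 members, 0 were called higher and 0 lower in WNT against E7 (edgeR quasi-likelihood test, Benjamini-Hochberg adjusted p under 0.05 over 17355 genes; differences are on the log2 scale, with SE for standard error). Over all genes tested, 0.605% were called. At an unadjusted p under 0.05 there were 6 members (FN1, LAMA2, LAMB1, COL8A1, COL21A1 and ITGA9), and DESeq2 called 0. The share of all genes at that unadjusted level was not computed. The median of the members was -0.07 on the log2 scale, and that of all genes 0.02. FN1 (gene ID 2335, chromosome 2), the RGD protein that integrins with ITGA5 or ITGAV bind, stood at 86.5 and 133 CPM in E7 and at 185 and 275 in WNT. Both WNT libraries lay above both E7 libraries, and replicate 2 was the higher library in each group. The difference was 1.06 (SE 0.29, adjusted p = 0.243), and with the replicate block the adjusted p was 0.0347. LAMB1, the beta chain of the laminins of early embryos, stood at 181 and 95.005 CPM in E7 and at 269 and 209 in WNT, with both WNT libraries above both E7 libraries. It differed by 0.79 (SE 0.32, adjusted p = 0.69), and the adjusted p was 0.0353 with the block. With the block these were the 2 members called, both higher, where 2.33% of all genes were called. Without E7_CPI replicate 1, 0 members were called, where 0.427% of all genes were.

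CPI-203 for 1 day changed a large share of all genes, and these genes shared in it to about the same extent. In E7_CPI against E7, 8 of the 74 were called higher and 13 lower (28.4%), where 32.7% of all genes were called (15% higher, 17.6% lower). In WNT_CPI against WNT, 10 were higher and 13 lower (31.1%), where 31% of all genes were called (13% higher, 17.9% lower). The share of members called was thus near that of all genes in both media, and what follows is which members they were. The summed level of the 7 pluripotency markers was 6977 to 8287 CPM in E7 and 6968 to 7220 in E7_CPI, and 7154 to 8505 in WNT and 5148 to 6076 in WNT_CPI. NANOG (above), POU5F1, DPPA4, SALL4 and LIN28A were lower in both CPI-203 libraries than in both controls in each medium. POU5F1 stood at 483 and 634 CPM in E7 and 284 and 264 in E7_CPI, and DPPA4 stood at 1057 and 1067 CPM in E7 and 239.5 and 259.7 in E7_CPI. SOX2 and PODXL were higher in E7_CPI than in E7 (SOX2 407 and 419.6 CPM against 278 and 355) and overlapped between WNT_CPI and WNT. Of the markers of other cells, KDR stood at 66.7 and 71.6 CPM in E7, 22.7 and 21.9 in E7_CPI, 106 and 147 in WNT and 19.5 and 19.6 in WNT_CPI, and RUNX1 at 0.5 and 0.239, 1.62 and 1.73, 0.516 and 0.56 and 3.21 and 3.63. These 2 were not the only ones: among others, CXCR4 and HAND1 were higher and KRT7, PDGFRB and THY1 lower with CPI-203 in both media, without overlap. CXCR4 stood at 0.691 and 0.597 CPM in E7 and 6.15 and 6.11 in E7_CPI. KRT7 stood at 10.3 and 13.3 CPM in E7 and 1.59 and 1.14 in E7_CPI. TAGLN was higher in E7_CPI than in E7 and overlapped between WNT_CPI and WNT. The part of these markers in the differences below was not tested. The member medians were -0.26 and -0.20 on the log2 scale, against -0.05 and -0.01 over all genes. The 2 comparisons share no library. Of the members, 17 were called in both, 7 higher and 10 lower, and 0 in opposite directions. The 17 are 81.0% of the 21 called in E7 medium and 73.9% of the 23 called with Wnt3a. This overlap was not computed over all genes, so it is not read as particular to the members. With E7_CPI replicate 1 left out, 6 members were called higher and 6 lower in E7 medium, where 17.5% of all genes were called, and all 12 were called the same way with Wnt3a.

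Among the laminins, LAMC1 (gene ID 3915, chromosome 1), the gamma chain shared by most laminins, rose most plainly. Its level was 330.0 and 331 CPM in E7 and 726 and 734 in E7_CPI. With Wnt3a it was 317 and 318 in WNT and 727 and 775 in WNT_CPI. At 24 h every CPI-203 library lay above every library without it. LAMC1 rose by 1.14 (SE 0.10, adjusted p = 2.49e-05) in E7 medium and rose by 1.24 (SE 0.10, adjusted p = 1.25e-05) with Wnt3a, or 2.21-fold and 2.37-fold. It had the smallest SE of the members called. LAMA1, the alpha chain of the first basement membrane of the embryo, rose by 0.61 (SE 0.16, adjusted p = 0.0126) in E7 medium and rose by 0.65 (SE 0.16, adjusted p = 0.00914) with Wnt3a. LAMB1, their usual partner, was not called: 181 and 95.005 CPM in E7, 179.9 and 186 in E7_CPI, 269 and 209 in WNT and 253 and 182 in WNT_CPI.

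Other laminin chains went down. LAMC3, a gamma chain of narrower distribution, stood at 39.6 and 37.3 CPM in E7 against 23.4 and 21.6 in E7_CPI, and at 35.7 and 37.6 in WNT against 20.6 and 20.9 in WNT_CPI. It fell by 0.77 (SE 0.14, adjusted p = 0.00181) in E7 medium and fell by 0.82 (SE 0.14, adjusted p = 0.00132) with Wnt3a, with no overlap of the groups. LAMA3, the alpha chain of the epithelial laminin, fell by 1.15 (SE 0.37, adjusted p = 0.0366) in E7 medium, while with Wnt3a it was not called (2.81 and 2.35 CPM in WNT, 2.13 and 1.87 in WNT_CPI). LAMA5, the alpha chain of the laminin that stem cells themselves lay down, fell by 0.78 (SE 0.18, adjusted p = 0.00687) with Wnt3a: 188 and 188 CPM in WNT and 123 and 96.4 in WNT_CPI. In E7 medium LAMA5 differed by -0.34 (SE 0.17, adjusted p = 0.159). Of 11 laminins, 2 rose and 2 fell in each medium. The difference between the media was not called for any laminin.

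The type IV collagens are arranged in pairs of genes that start back to back and are read in opposite directions, and their promoters are shown because the ratio between the chains of a pair differed between groups. COL4A1 and COL4A2 start 126 bases apart on chromosome 13. COL4A4 and COL4A3 start 418 bases apart on chromosome 2, by a COL4A4 start at 227164205. The COL4A4 gene reaches further, to 227164488, nearer to the COL4A3 start at 227164624. Part of the stretch shown before COL4A3 therefore lies within COL4A4. COL4A6 and COL4A5 start 379 or 1415 bases apart on the X chromosome, by the start of COL4A6 used. The sequences are from RefSeq (GRCh38.p14, plus strand, written 5′ to 3′): the whole stretch between the starts of COL4A1 and COL4A2 (chr13:110307158-110307283), the 250 bases before COL4A3 (chr2:227164374-227164623) and COL4A5 (chrX:108439588-108439837), and, for the laminin chain above, those before LAMC1 (chr1:183023170-183023419). Capitals mark matches, on either strand, to the GC box (GGGCGG), the TATA box (TATAAA) and the CCAAT box (CCAAT).
COL4A1 and COL4A2, shared: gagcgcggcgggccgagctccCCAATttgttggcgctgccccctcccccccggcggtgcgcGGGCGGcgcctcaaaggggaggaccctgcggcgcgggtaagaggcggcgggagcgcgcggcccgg
COL4A3: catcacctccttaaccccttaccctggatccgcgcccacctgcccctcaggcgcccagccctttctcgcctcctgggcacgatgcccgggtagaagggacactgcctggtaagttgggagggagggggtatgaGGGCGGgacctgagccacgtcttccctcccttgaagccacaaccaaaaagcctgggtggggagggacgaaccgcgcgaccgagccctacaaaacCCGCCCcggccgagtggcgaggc
COL4A5: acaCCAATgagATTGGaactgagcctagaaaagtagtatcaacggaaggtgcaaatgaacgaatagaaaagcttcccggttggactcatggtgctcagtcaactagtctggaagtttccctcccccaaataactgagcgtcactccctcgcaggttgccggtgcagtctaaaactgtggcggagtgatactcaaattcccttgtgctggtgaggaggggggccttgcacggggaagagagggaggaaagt
LAMC1: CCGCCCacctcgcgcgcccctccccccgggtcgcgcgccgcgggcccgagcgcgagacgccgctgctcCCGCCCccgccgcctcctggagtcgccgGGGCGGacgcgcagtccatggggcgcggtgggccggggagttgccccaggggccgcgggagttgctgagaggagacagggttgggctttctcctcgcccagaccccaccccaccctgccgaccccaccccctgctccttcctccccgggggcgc
The stretch shared by COL4A1 and COL4A2 held 1 GC box and 1 CCAAT box, the COL4A3 promoter 2 GC boxes, the COL4A5 promoter 2 CCAAT boxes and the LAMC1 promoter 3 GC boxes, and the 4 stretches held 0 TATA boxes. RefSeq promoters were found for 55 of the 74 members. In their 250 upstream bases, a GC box was found in 32 of the 55 members (against 42.3% of all 27305 promoters), a TATA box in 6 (against 11.1%) and a CCAAT box in 13 (against 33.0%). These are matches of letters in this window, not sites of binding.

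At 24 h with CPI-203 COL4A1 was the higher and COL4A2 the lower against their controls, both being chains of the common basement membrane network. COL4A1 stood at 248 and 248.6 CPM in E7, 325 and 317 in E7_CPI, 259 and 298 in WNT and 377 and 347 in WNT_CPI. COL4A2 stood at 217 and 209.8, 199.7 and 193, 232 and 259.8 and 209 and 189 in the same groups. Both CPI-203 libraries lay above their controls for COL4A1 and below them for COL4A2 in each medium, and neither gene was called. COL4A1 differed by 0.37 (SE 0.15, adjusted p = 0.0761) in E7 medium and by 0.38 (SE 0.15, adjusted p = 0.0736) with Wnt3a, where the block gave an adjusted p of 0.0139. The ratio of COL4A1 to COL4A2 counts within a library does not depend on library size. It was 1.14 and 1.19 in E7 and 1.12 and 1.15 in WNT, against 1.63 and 1.64 in E7_CPI and 1.80 and 1.83 in WNT_CPI. At 48 h the 8 libraries, those of WNT_CPI_ACT included, lay at 0.913 to 1.05.

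In the pair on the X chromosome the balance moved towards COL4A6. Like COL4A1, it is the minus-strand gene of its pair. COL4A4, the minus-strand gene of the pair with COL4A3, was lower with CPI-203. The ratio of COL4A3 to COL4A4 counts, on few reads, overlapped between CPI-203 and control in each medium. It was 0.237 and 0.179 in E7, 0.462 and 0.154 in E7_CPI, 0.266 and 0.0714 in WNT and 0.263 and 0.182 in WNT_CPI. The ratio of COL4A5 to COL4A6 counts was 1.47 and 1.37 in E7 and 1.48 and 1.33 in WNT, 0.901 and 0.998 in E7_CPI and 0.829 and 0.86 in WNT_CPI. The 4 CPI-203 libraries at 24 h were the only ones of the 16 with less COL4A5 than COL4A6. At 48 h WNT_CPI_ACT lay at 1.44 and 1.23, still below WNT_ACT at 1.81 and 1.52. These ratios were picked after the values were seen and are given without a test. In the pair of the kidney's basement membrane, COL4A4 fell by 2.4 (SE 0.35, adjusted p = 0.000537) in E7 medium, from 2.22 and 1.60 CPM to 0.357 and 0.363. With Wnt3a it fell by 1.86 (SE 0.34, adjusted p = 0.00222). Its neighbour COL4A3 had at most 26 counts in a library and was called lower with the block alone (adjusted p 0.0369 in E7 medium and 0.0431 with Wnt3a). Of 6 type IV chains, 0 were called higher and 1 lower in each medium. With the block COL4A6 was also called higher in both (adjusted p 0.00926 and 0.00695), and COL4A1 with Wnt3a.

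**Figure D2:**
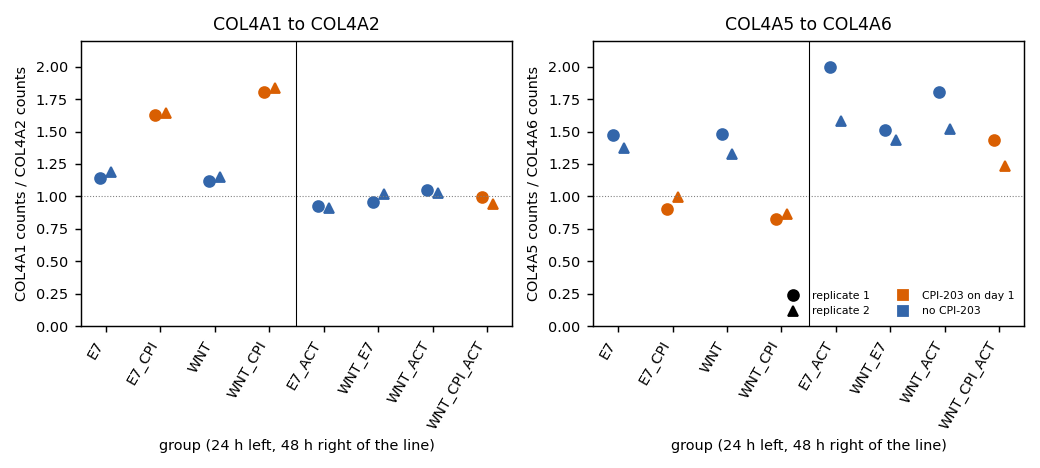
The vertical axes give the ratio of COL4A1 to COL4A2 counts (left) and of COL4A5 to COL4A6 counts (right) in each library, with groups on the horizontal axis; circles are replicate 1, triangles replicate 2, orange marks CPI-203 on day 1. The orange points at 24 h lie above the others on the left (1.63 to 1.83) and below them on the right (0.829 to 0.998), and at 48 h the left ratios all lie at 0.913 to 1.05.

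Of 10 fibrillar collagens, 2 were called higher and 1 lower in E7 medium and 3 higher and 1 lower with Wnt3a. COL2A1 (gene ID 1280, chromosome 12), the main fibre collagen of cartilage, stood at 27.8 and 17.4 CPM in E7 and 160.2 and 168 in E7_CPI. With Wnt3a it went from 18.2 and 14.9 in WNT to 176 and 108 in WNT_CPI. The CPI-203 libraries did not overlap the controls. COL2A1 rose by 2.86 (SE 0.29, adjusted p = 6.86e-05) in E7 medium and rose by 3.1 (SE 0.30, adjusted p = 4.1e-05) with Wnt3a, or 7.26-fold and 8.59-fold. COL11A1, which joins COL2A1 in cartilage fibres, rose by 1.48 (SE 0.27, adjusted p = 0.00193) in E7 medium and rose by 1.42 (SE 0.27, adjusted p = 0.00245) with Wnt3a: 37.1 and 29.1 CPM in E7 against 94.96 and 89.3 in E7_CPI, and 31.01 and 24.99 in WNT against 77.05 and 72.8 in WNT_CPI. COL24A1, a minor fibre collagen, rose by 1.79 (SE 0.56, adjusted p = 0.0334) with Wnt3a, and in E7 medium its adjusted p was 0.396, or 0.0136 with the block. COL1A2, a chain of type I collagen, fell by 0.57 (SE 0.15, adjusted p = 0.0122) in E7 medium and fell by 0.63 (SE 0.15, adjusted p = 0.00817) with Wnt3a, while its partner COL1A1 was not called (177 and 271 CPM in E7 and 307 and 312 in E7_CPI). With the block, COL5A1 was called higher in both media (adjusted p 0.00519 and 0.00446) and COL11A2 with Wnt3a (0.000351).

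Of 16 collagens outside the fibrillar, FACIT and type IV groups, 1 rose and 4 fell in E7 medium, and 2 rose and 4 fell with Wnt3a. COL8A2, a short chain of network-forming collagen known from the cornea, stood at 4.24 and 5.54 CPM in E7 and 0.494 and 0.586 in E7_CPI, and at 4.08 and 3.89 in WNT and 0.441 and 0.657 in WNT_CPI. It fell by 3.17 (SE 0.56, adjusted p = 0.00167) in E7 medium and fell by 2.85 (SE 0.55, adjusted p = 0.00284) with Wnt3a. COL17A1, a membrane collagen of the hemidesmosome, fell by 1.66 (SE 0.31, adjusted p = 0.00242) in E7 medium and fell by 2.07 (SE 0.32, adjusted p = 0.000805) with Wnt3a, from 2.57 and 2.67 CPM to 0.823 and 0.837 and from 2.04 and 2.18 to 0.318 and 0.681. COL23A1, another membrane collagen, fell by 2.01 (SE 0.30, adjusted p = 0.000681) in E7 medium and fell by 1.52 (SE 0.30, adjusted p = 0.00301) with Wnt3a. COL6A3, the longest chain of the beaded type VI filament, fell by 1.48 (SE 0.41) in E7 medium and fell by 1.37 (SE 0.41) with Wnt3a, while COL6A1 was not called in either medium. None of the groups of COL8A2, COL17A1 or COL23A1 overlapped between CPI-203 and control.

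Of 9 FACIT collagens, 0 rose in either medium, 2 fell in E7 medium and 1 with Wnt3a. COL16A1 fell by 2.16 (SE 0.59, adjusted p = 0.0174) in E7 medium, and COL9A3, found on cartilage fibres, fell by 0.64 (SE 0.20) in E7 medium and fell by 0.69 (SE 0.20) with Wnt3a. COL16A1 with Wnt3a had an adjusted p of 0.153, or 0.000738 with the block. COL18A1, a basement membrane collagen whose end is released as endostatin, rose by 0.89 (SE 0.15, adjusted p = 0.00127) in E7 medium and rose by 0.85 (SE 0.15, adjusted p = 0.00165) with Wnt3a: 266 and 263 CPM in E7, 507 and 475 in E7_CPI, 284 and 336 in WNT and 590.1 and 532 in WNT_CPI, with no overlap. COL8A1, the partner of COL8A2, moved the other way with Wnt3a on few reads: 2 and 3 counts in WNT and 22 and 20 in WNT_CPI, a ratio of 8.04 (95% exact counting interval 3.18 to 26.03, which covers counting error alone; edgeR adjusted p = 0.00311).

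Of 21 integrin subunits, 3 rose and 3 fell in E7 medium, and 3 rose and 4 fell with Wnt3a. ITGA3 (gene ID 3675, chromosome 17), which binds laminin together with ITGB1, stood at 21.7 and 27.5 CPM in E7 and 75.4 and 72.1 in E7_CPI. With Wnt3a it stood at 15.5 and 22.3 in WNT and 40.9 and 53.9 in WNT_CPI, again without overlap. ITGA3 rose by 1.58 (SE 0.37, adjusted p = 0.00801) in E7 medium and rose by 1.33 (SE 0.37, adjusted p = 0.0195) with Wnt3a. ITGA6, the other abundant laminin receptor chain of stem cells, was not called: 414 and 311 CPM in E7 and 283 and 291 in E7_CPI, 413 and 313 in WNT and 357 and 290.3 in WNT_CPI. ITGB4, which pairs with ITGA6 in hemidesmosomes, fell by 1.84 (SE 0.48, adjusted p = 0.0143) with Wnt3a. In E7 medium it stood at 2.38 and 2.39 CPM in E7 and 1.02 and 0.92 in E7_CPI (adjusted p = 0.0579, and 0.026 with the block). ITGB1, the beta subunit that most laminin and collagen receptors use, fell by 0.69 (SE 0.18, adjusted p = 0.0161) with Wnt3a, from 345 and 314 CPM to 196 and 213. In E7 medium ITGB1 differed by -0.3 (SE 0.18, adjusted p = 0.232).

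RGD receptors split in direction. ITGA8, an alpha subunit that pairs with ITGB1 and is known from the developing kidney, had 0 and 0 counts in the E7 libraries and 10 and 11 in E7_CPI, at least 4.06-fold higher against a floor of 3 counts per library (edgeR adjusted p = 0.00143). With Wnt3a it had 1 and 1 counts in WNT and 36 and 18 in WNT_CPI, a ratio of 25.8 (95% exact counting interval 6.81 to 219; adjusted p = 0.00107). ITGA5, the main fibronectin receptor chain, rose by 0.56 (SE 0.15, adjusted p = 0.0156) in E7 medium and stood at 33.5 and 38.7 CPM in WNT and 39.3 and 38.6 in WNT_CPI. ITGB3, a partner of ITGAV, rose by 2.77 (SE 0.57, adjusted p = 0.00395) with Wnt3a, from 5 and 5 counts to 37 and 36. ITGB8, a partner of ITGAV that binds latent TGF-beta, fell by 1.89 (SE 0.62, adjusted p = 0.0377) in E7 medium and fell by 1.77 (SE 0.61, adjusted p = 0.0476) with Wnt3a. ITGAV itself was not called in either medium, and with the block it was called higher with Wnt3a (adjusted p 0.0265). The leukocyte subunits were at trace level: ITGAM fell by 2.62 (SE 0.54) in E7 medium and fell by 1.49 (SE 0.48) with Wnt3a, at most 25 counts in a library, and ITGB2 fell by 1.56 (SE 0.55, adjusted p = 0.0487) in E7 medium, a call not made with E7_CPI replicate 1 left out (log2 fold change -0.98, adjusted p 0.3). Of 4 collagen-binding alpha subunits, 0 were called in either medium, and ITGA2 was called lower with Wnt3a with the block (adjusted p 0.00216).

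**Figure D3:**
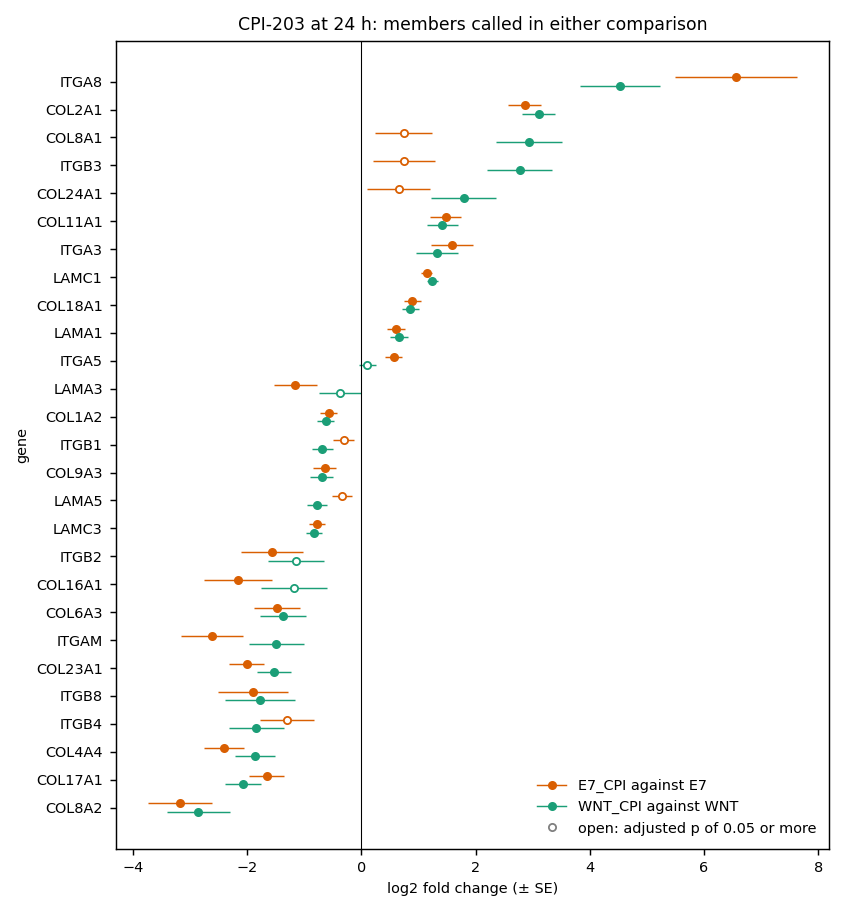
Points give the log2 fold change of CPI-203 against its control at 24 h and bars its SE, in E7 medium (orange) and with Wnt3a (green), for the members called in either comparison, and open points were not called. The 17 members called in both lie on the same side of 0 in both, and the ITGA8 value in E7 medium rests on a control without counts and is no measure of size.

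Single libraries were left out in turn, in fits without the block, to see which calls stayed. In E7_CPI against E7, 14 members were called without E7 replicate 1, 19 without E7 replicate 2, and 12 without either E7_CPI library. The 10 called throughout were COL2A1, COL11A1, COL18A1, LAMC1 and ITGA8, all higher, and COL4A4, COL8A2, COL17A1, COL23A1 and LAMC3, all lower. With E7_CPI replicate 1 left out, the adjusted p was 0.000679 for LAMC1, 0.000855 for COL2A1 and 0.0423 for ITGA3. It was 0.0669 for LAMA1, 0.0987 for ITGA5, 0.074 for COL1A2, 0.131 for LAMA3, 0.101 for COL6A3, 0.1 for COL9A3, 0.115 for COL16A1, 0.121 for ITGB8 and 0.3 for ITGB2, so these 9 were not called without that library. With the block on the same 15 libraries, 8 of the 9 were called, and ITGB2 was not (adjusted p 0.217). In WNT_CPI against WNT, 14 to 19 members were called without a library of either group (14 without WNT_CPI replicate 2, 15 without WNT_CPI replicate 1 or WNT replicate 2, and 19 without WNT replicate 1). The same 10 genes and COL8A1 and ITGB3 were called throughout. Without E7_CPI replicate 1, 22 members were called (26.5% of all genes), and ITGB8 was not (adjusted p 0.0653). With the block, 12 members were called higher and 15 lower in E7 medium (44% of all genes called), among them LAMB1 (adjusted p 0.0211) higher, and 17 higher and 20 lower with Wnt3a (52.9% of all genes called), COL12A1 and ITGA2B higher and COL22A1, COL25A1, COL26A1 and LAMA4 lower among those added.

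Whether CPI-203 acted differently with and without Wnt3a was tested as the difference of the 2 fold changes. Of the 74 members, 0 were called in either direction, where 0.0115% of all 17355 genes were called. With E7_CPI replicate 1 left out 0 were called (0.00562% of all genes), and with the block 0 (0.0393%). DESeq2 also called 0, and at an unadjusted p under 0.05 there were 2 (COL8A1 and ITGB3), a level at which the share of all genes was not computed. The SE of these differences was 0.14 for LAMC1 and 0.39 for COL2A1 on the log2 scale, 0.79 for ITGB3 and 0.77 for COL8A1. For ITGB3 and COL8A1, which were called with Wnt3a alone, the differences between the media were 2.03 (SE 0.79, adjusted p = 0.995) and 2.19 (SE 0.77, adjusted p = 0.995).

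At 48 h the effect of Wnt3a on day 1 was read in cells that all received Activin A on day 2 (WNT_ACT against E7_ACT). Here 5 of 74 members were called higher and 4 lower (12.2%), where 3.84% of all genes were called (2.48% higher, 1.36% lower), and the member median was -0.14 against -0.01 over all genes. COL5A1, a chain of the type V collagen that starts fibres, stood at 23.1 and 21.9 CPM in E7_ACT and 119 and 57.3 in WNT_ACT and rose by 1.97 (SE 0.39, adjusted p = 0.0223). COL6A1, a chain of type VI collagen, stood at 94.9 and 111 and 401 and 310.2 and rose by 1.79 (SE 0.36, adjusted p = 0.0249). In both genes WNT_ACT replicate 1 was the highest library and the groups did not overlap. The summed endoderm markers were also highest in WNT_ACT replicate 1 (195 CPM, against 47.2 in replicate 2 and at most 2.33 in E7_ACT), and their part in these differences was not tested. LAMA2, the alpha chain of the laminin of muscle, rose by 1.17 (SE 0.22, adjusted p = 0.0175), from 11.4 and 10.6 CPM to 23.96 and 25.4. COL1A2 rose by 0.94 (SE 0.15, adjusted p = 0.00741) and ITGA5 rose by 0.76 (SE 0.15, adjusted p = 0.0232).

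The 4 members that fell were collagens. COL6A3, which is needed with COL6A1 to make the type VI filament, stood at 11.3 and 15.4 CPM in E7_ACT and 2.02 and 4.43 in WNT_ACT and fell by 2.04 (SE 0.41, adjusted p = 0.0235), so the chains of type VI collagen went in opposite directions. COL23A1 fell by 1.29 (SE 0.29, adjusted p = 0.0378) and COL21A1, a FACIT collagen, fell by 1.23 (SE 0.26, adjusted p = 0.0299). COL8A1 had 17 and 9 counts in E7_ACT and 2 and 2 in WNT_ACT, a ratio of 0.162 (95% exact counting interval 0.0411 to 0.467; adjusted p = 0.0468). No call held in every fit with a library left out: 0 members were called without E7_ACT replicate 1 or WNT_ACT replicate 1, 3 without E7_ACT replicate 2, 4 without WNT_ACT replicate 2 and 6 without E7_CPI replicate 1 (2.13% of all genes). With the block, all 9 were called and 15 in total (5 higher, 10 lower, where 11.4% of all genes were called), with COL4A4, COL11A1, COL11A2, COL24A1, ITGA1 and LAMA3 added on the lower side (adjusted p 0.00857 to 0.0395).

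Activin A after Wnt3a (WNT_ACT against WNT_E7) was followed by calls of 4 members higher and 2 lower (8.11%), where 0.882% of all genes were called (0.68% higher, 0.202% lower). The member median was -0.06 and that of all genes -0.01. COL5A2, the partner of COL5A1, stood at 16.3 and 23.4 CPM in WNT_E7 and 284 and 109.9 in WNT_ACT and rose by 3.31 (SE 0.61, adjusted p = 0.0392). Its WNT_ACT libraries differed from each other more than the WNT_E7 libraries did but stayed above them. COL9A2, a FACIT chain of cartilage, rose by 1.57 (SE 0.29, adjusted p = 0.0381), from 4.002 and 3.26 CPM to 12.6 and 9.01. COL1A2 rose by 1.09 (SE 0.15, adjusted p = 0.0152) and ITGA5 rose by 0.93 (SE 0.15, adjusted p = 0.0312), as in the comparison above, which shares the WNT_ACT libraries. ITGA6, the laminin receptor chain, stood at 427 and 312 CPM in WNT_E7 and 121 and 176 in WNT_ACT and fell by 1.31 (SE 0.24, adjusted p = 0.0355). COL14A1, a FACIT collagen, fell by 0.96 (SE 0.17, adjusted p = 0.0351).

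In fits without the block, these calls changed when single libraries were left out. Without WNT_ACT replicate 1 or WNT_E7 replicate 1, 0 members were called, without WNT_E7 replicate 2 or E7_CPI replicate 1, 1 (COL1A2 in the latter, with adjusted p 0.0484 and 0.124% of all genes called), and without WNT_ACT replicate 2, 8. With the block, 12 were called higher and 5 lower, where 6.35% of all genes were called. The members added were COL5A1, COL6A1, COL6A2, COL13A1, LAMC3, ITGA3, ITGA9 and ITGB5, higher, and COL21A1, COL23A1 and COL24A1, lower (adjusted p 0.000949 to 0.0473). ITGB5, the beta subunit of a vitronectin receptor with ITGAV, stood at 99.6 and 293 CPM in WNT_E7 and 526 and 618 in WNT_ACT and differed by 1.54 (SE 0.41, adjusted p = 0.114), or with an adjusted p of 0.0182 in the blocked fit.

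The levels of ITGB5 split by group and are given here as a description, because E7_ACT differs from E7 in time as well as in Activin A. Its levels were 70.4 and 86.2 CPM in E7, 84.4 and 80.4 in E7_CPI, 98.8 and 133 in WNT and 59.2 and 85.4 in WNT_CPI. At 48 h they were 537 and 629 in E7_ACT, 526 and 618 in WNT_ACT, 99.6 and 293 in WNT_E7 and 196 and 138 in WNT_CPI_ACT. The groups given Activin A without CPI-203 were the highest, and WNT_E7 and WNT_CPI_ACT overlapped. The partner ITGAV stood at 88.7 and 64.03 CPM in E7, 131 and 62.04 in E7_ACT, 62.95 and 54.3 in WNT_E7 and 124 and 54.6 in WNT_ACT, with replicate 1 the higher library in each. COL5A2 was at 39.1 and 55.2 CPM in E7, 121 and 105 in E7_ACT and 19.99 and 24.1 in WNT. FN1 was lowest in E7 and highest in WNT_ACT (341 and 421 CPM), with E7_ACT at 249.3 and 315 and WNT_E7 at 193 and 321, which overlapped.

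**Figure D4:**
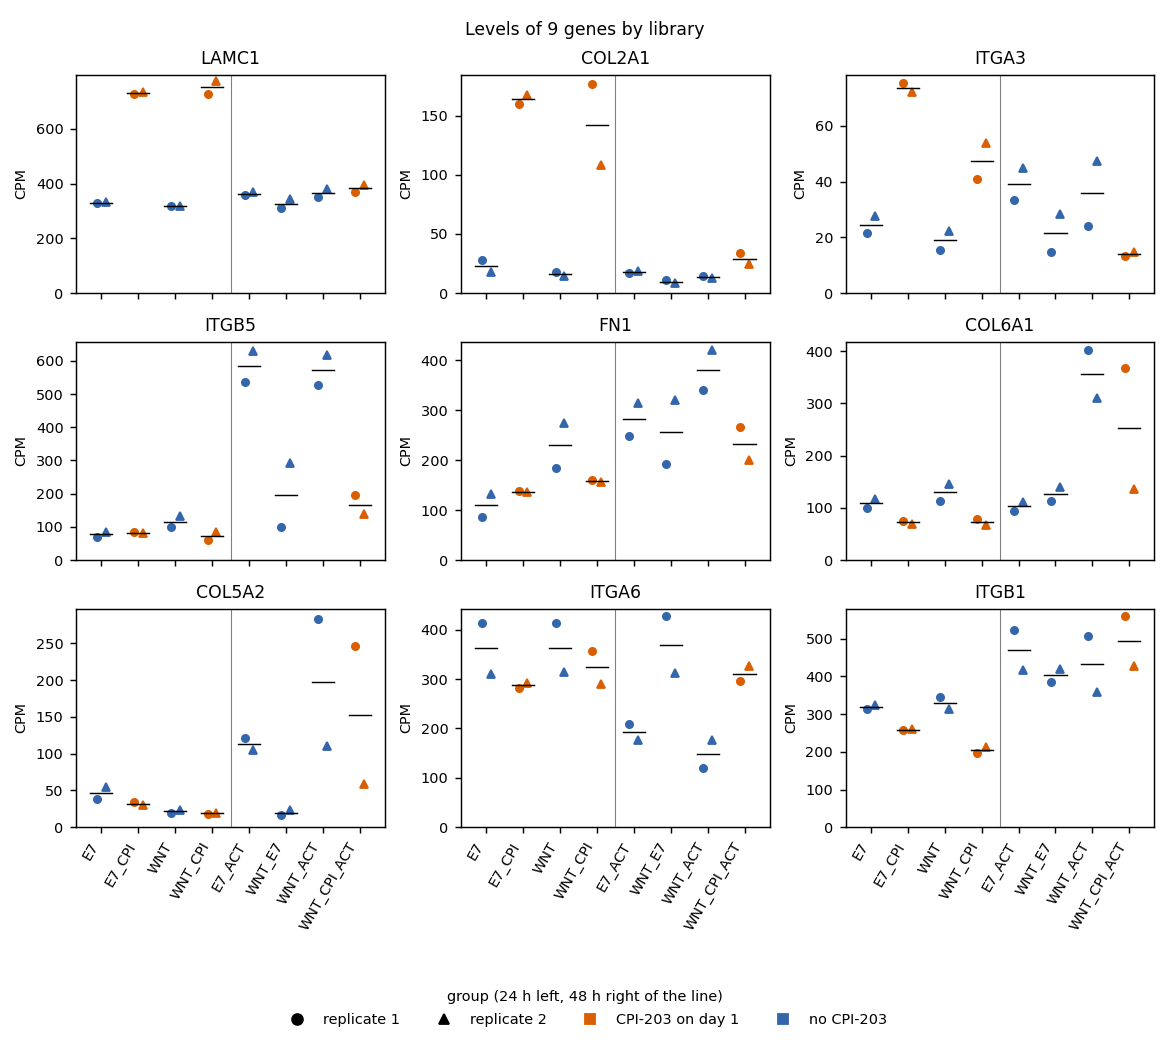
Each panel gives the level of 1 gene in CPM on a linear axis from 0, by group on the horizontal axis, with circles for replicate 1, triangles for replicate 2, bars for the mean of the 2 libraries and orange for CPI-203 on day 1. LAMC1 and COL2A1 are high in the 4 orange points at 24 h. At 48 h LAMC1 lies near the other groups, while COL2A1 in WNT_CPI_ACT is far below its 24 h level but above WNT_ACT. ITGB5 is high in E7_ACT and WNT_ACT, and COL6A1 and COL5A2 differ widely between the 2 WNT_CPI_ACT libraries.

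The last comparison asks what CPI-203 on day 1 left behind after a day of Activin A (WNT_CPI_ACT against WNT_ACT). Of 74 members, 4 were called higher and 8 lower (16.2%), where 5.9% of all genes were called (1.9% higher, 4% lower), and the member median was -0.11 against 0.00 over all genes. Among the laminins, LAMB3 and LAMA3, a beta and an alpha chain known from epithelia, fell. LAMB3 stood at 0.333 and 1.21 CPM in WNT_ACT (13 and 46 counts) and 0.137 and 0.145 in WNT_CPI_ACT (6 and 6 counts). It fell by 2.42 (SE 0.59, adjusted p = 0.0384). LAMA3 stood at 1.51 and 2.61 and 0.412 and 0.919 and fell by 1.63 (SE 0.39, adjusted p = 0.0373). In both genes the WNT_CPI_ACT libraries lay below both WNT_ACT libraries. LAMC3, the gamma chain of narrower distribution, fell by 0.98 (SE 0.14, adjusted p = 0.00377), from 55.3 and 47.9 CPM to 28.98 and 23.2.

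Among the integrins, ITGA9, which pairs with ITGB1 and binds tenascin C, stood at 17.1 and 7.43 CPM in WNT_ACT and 2.38 and 1.16 in WNT_CPI_ACT and fell by 2.79 (SE 0.43, adjusted p = 0.00648). ITGB5 fell by 1.78 (SE 0.41, adjusted p = 0.0312), from 526 and 618 CPM to 196 and 138. ITGA6 rose by 1.07 (SE 0.23, adjusted p = 0.0258), from 121 and 176 CPM to 295 and 327, beside 427 and 312 in WNT_E7. ITGA8 had 4 and 3 counts in WNT_ACT and 30 and 31 in WNT_CPI_ACT, a ratio of 7.89 (95% exact counting interval 3.61 to 20.5; adjusted p = 0.0196). ITGA3 had an adjusted p of 0.0606 and was called lower in the blocked fit (adjusted p 0.00135), at 24.1 and 47.5 CPM in WNT_ACT and 13.3 and 14.7 in WNT_CPI_ACT.

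Of 41 collagens, 2 rose and 2 fell. COL2A1 stood at 14.3 and 12.8 CPM in WNT_ACT and 33.5 and 24.5 in WNT_CPI_ACT and rose by 1.1 (SE 0.28, adjusted p = 0.0446). COL11A1 rose by 1.31 (SE 0.27, adjusted p = 0.0185), from 25.4 and 17.7 CPM to 60.1 and 47.04. COL8A2 fell by 2.57 (SE 0.54, adjusted p = 0.021), from 2.74 and 5.61 CPM to 0.481 and 0.919, and COL28A1, at most 21 counts in a library, fell by 2.24 (SE 0.58, adjusted p = 0.0498). COL5A2, COL6A1 and COL6A2 were not called here, and the WNT_CPI_ACT libraries disagreed on them. COL6A1 stood at 367 and 137 CPM in WNT_CPI_ACT against 401 and 310.2 in WNT_ACT, COL6A2 at 158 and 45.9 against 177 and 133 and COL5A2 at 246 and 58.1 against 284 and 109.9. In all 3 genes WNT_CPI_ACT replicate 1 lay within the WNT_ACT range and replicate 2 below it. The endoderm markers, at 21.99 and 1.04 CPM in the WNT_CPI_ACT libraries and 195 and 47.2 in WNT_ACT, were also higher in replicate 1 of both groups, and their part in this was not tested. In total 5 members were called in the same direction at 24 h with Wnt3a and at 48 h: COL2A1, COL11A1 and ITGA8 higher, COL8A2 and LAMC3 lower. These are 21.7% of the 23 called at 24 h and 41.7% of the 12 called at 48 h, and the comparisons share no library. This overlap, too, was not computed over all genes and is not read as particular to the members.

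Without single libraries, 4 to 9 members were called (9 without WNT_ACT replicate 1, 8 without WNT_CPI_ACT replicate 1, 5 without WNT_CPI_ACT replicate 2, 4 without WNT_ACT replicate 2) and 7 without E7_CPI replicate 1 (3.64% of all genes). ITGA9 and LAMC3 were among those called throughout. With the block, 8 were higher and 17 lower, where 20.2% of all genes were called. The added members were COL4A5, COL4A6, COL7A1 and COL12A1, higher, and COL4A4, COL5A1, COL9A3, COL11A2, COL17A1, COL22A1, COL25A1, ITGA3 and ITGB4, lower (adjusted p 0.000666 to 0.0398).

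The change of the CPI-203 difference from 24 h to 48 h was then tested, as the fold change of WNT_CPI_ACT against WNT_ACT minus that of WNT_CPI against WNT. Activin A and time both differ between the days and cannot be told apart. In 12 members the difference changed (16.2%, where 13.3% of all genes were called, 7.73% upward and 5.6% downward), 8 downward and 4 upward, and the share of members is near that of all genes. LAMC1 is the plainest: its difference of 1.24 at 24 h was 0.06 at 48 h, where it stood at 351 and 380.1 CPM in WNT_ACT and 370.0 and 395 in WNT_CPI_ACT. The change was -1.18 (SE 0.14, adjusted p = 0.000485). COL2A1 went from 3.10 to 1.10, a change of -2.0 (SE 0.39, adjusted p = 0.00769). ITGA3 went from 1.33 to -1.35, a change of -2.68 (SE 0.52, adjusted p = 0.00769), so the groups with and without CPI-203 changed order between the days. ITGA9 had a difference of 0.00 at 24 h, where it stood at 3.94 and 5.76 CPM in WNT and 4.78 and 4.94 in WNT_CPI, and its change was -2.79 (SE 0.58, adjusted p = 0.0105). These 4 were called in every fit with a library left out, of 5 to 9 members called in each (5 without WNT replicate 1, 6 without WNT_CPI replicate 2, 7 without WNT replicate 2, 8 without E7_CPI replicate 1, where 10.1% of all genes were called, and 8 without WNT_CPI replicate 1, WNT_ACT replicate 2 or WNT_CPI_ACT replicate 2). With the block, 24 members were called, 10 upward and 14 downward, where 33.3% of all genes were called.

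**Figure D5:**
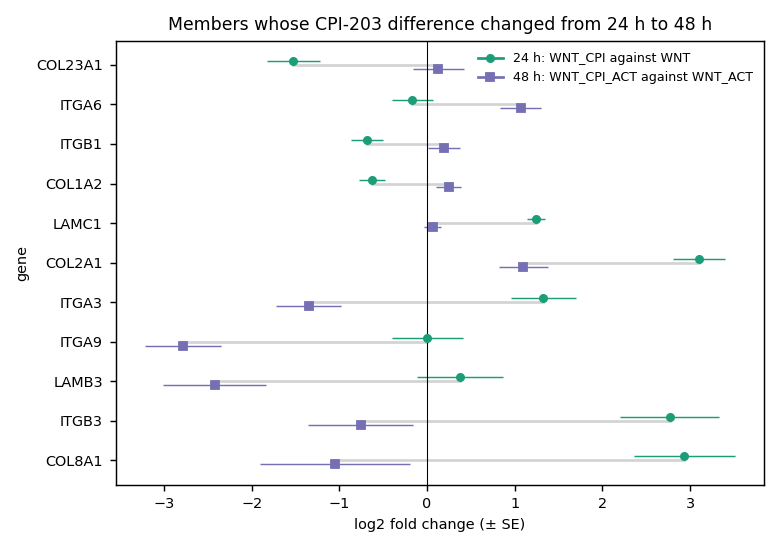
For 11 members whose CPI-203 difference changed, points give the log2 fold change at 24 h (green circles, WNT_CPI against WNT) and at 48 h (purple squares, WNT_CPI_ACT against WNT_ACT), bars the SE, and grey lines join the days. LAMC1 moves from 1.24 at 24 h to near 0 at 48 h, and ITGA3 moves from 1.33 to -1.35.

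Genes that act on or beside this matrix were followed by lists. Of 28 collagen-processing enzymes and chaperones tested, 4 were called higher and 7 lower in E7_CPI against E7, and 4 higher and 9 lower in WNT_CPI against WNT. Over all genes, 32.7% were called in the first comparison (15% higher, 17.6% lower) and 31% in the second (13% higher, 17.9% lower), and the list counts are to be read against these shares. P4HA3, a prolyl hydroxylase, rose by 2.13 in E7 medium and rose by 3.5 with Wnt3a on the log2 scale. ADAMTS2, which removes the procollagen end, fell by 1.86 in E7 medium and fell by 1.75 with Wnt3a, and LOXL2, which links collagen and elastin, rose by 1.6 in E7 medium and rose by 1.38 with Wnt3a. Of 24 other matrix proteins tested, 7 were higher and 6 lower in E7 medium, and 9 higher and 7 lower with Wnt3a. FBN1, the main fibrillin, rose by 2.7 in E7 medium and rose by 2.29 with Wnt3a, and THBS1, thrombospondin, rose by 2.49 in E7 medium and rose by 2.07 with Wnt3a. TNC, tenascin C, fell by 2.33 in E7 medium and fell by 4.75 with Wnt3a, and VCAN, the proteoglycan versican, fell by 2.97 in E7 medium and fell by 2.45 with Wnt3a. The list medians were -0.22 and 0.03 for collagen processing and 0.30 and 0.36 for other matrix proteins, against -0.05 and -0.01 over all genes. With E7_CPI replicate 1 left out, 3 and 4 processing genes and 4 and 3 matrix proteins were higher and lower in E7 medium, where 17.5% of all genes were called, and TNC had an adjusted p of 0.118.

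Of 12 matrix receptors other than integrins, 0 rose and 3 fell in E7 medium and 1 rose and 3 fell with Wnt3a, where 32.7% and 31% of all genes were called. Both collagen-binding kinases were among them: DDR2 fell by 1.96 in E7 medium and fell by 2.08 with Wnt3a, and DDR1 fell by 0.98 in E7 medium and fell by 1.32 with Wnt3a. Of 22 genes of the machinery that ties integrins to actin, 4 were higher and 5 lower in E7 medium and 4 higher and 7 lower with Wnt3a. FERMT1, a kindlin that activates integrins, fell by 1.95 in E7 medium and fell by 2.94 with Wnt3a, and TLN2, a talin, rose by 1.53 in E7 medium and rose by 1.42 with Wnt3a. Of 22 matrix proteases and their inhibitors, 7 were higher and 3 lower in E7 medium and 5 higher and 2 lower with Wnt3a. MMP14, the membrane-bound collagenase, fell by 2.32 in E7 medium and fell by 2.39 with Wnt3a, and ADAMTS9 rose by 2.98 in E7 medium and rose by 2.52 with Wnt3a. In WNT_CPI_ACT against WNT_ACT, 3 of these 22 rose and 4 fell, where 5.9% of all genes were called, and MMP9, a gelatinase, fell by 4.15. With E7_CPI replicate 1 left out, 3 proteases or inhibitors were higher and 2 lower in E7 medium, 3 and 3 genes of the actin link, and 0 and 2 receptors, where 17.5% of all genes were called and DDR1 had an adjusted p of 0.0867.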

How the data were processed

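Total RNA of 16 libraries (8 groups of 2) was sequenced. The values used are counts of reads per gene, deposited by the authors as 2 tables, 1 for each replicate number. Tools named in the submitters' processing notes, without version or role, are Bowtie2, featureCounts, deepTools, MACS2 and DESeq2. The aligner, genome build and strand setting of the RNA counting are not given in the sources used here. The deposited accessibility list holds positions only and was not used here.

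The tables share 27348 genes, joined by gene ID, and 27322 IDs matched a RefSeq symbol. The E7_CPI replicate 1 column was matched to genes by the row order of the other table (12 cells of its column were empty). On chromosome 22, 625 of 626 genes had no count, and no member lies there.

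All 8 groups were fitted in 1 model (edgeR 4.0.16 in R 4.3.3, quasi-likelihood F-test, filterByExpr, TMM factors of 0.948 to 1.049), and p-values were Benjamini-Hochberg adjusted over 17355 genes, with 0.05 as the threshold. All 74 members passed the filter on low counts. The SE is the log2 fold change divided by the square root of F. The script was tested on simulated counts. Alternatives were a replicate block, DESeq2 1.42.0, no TMM, no filter or a stricter one (50 or more counts in 2 or more libraries), the compared groups alone and each replicate left out. Fits without E7_CPI replicate 1 and with the block on the remaining 15 libraries were added after seeing the data. The check of the replicate numbers is this: libraries of the same number deviated together in 21 of 21 pairs of groups without E7_CPI (r over 0.5), and not in the 7 pairs with it (r = -0.123 to -0.0511), so the numbers pair the samples of the other 7 groups.

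Members named are those called in a comparison (at most 15 higher and 15 lower by size of change), 20 members always available, members with large replicate differences, and, of 5 related lists, genes called (at most 6 a list). Members called only with the block were named in addition. The values of 1 member are not reported here. It is counted in the totals and left out of the figures. The members and lists were chosen with earlier results of these data known. Counting intervals (95%, exact) and the floor of 3 counts cover counting error only.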

Additional observations from a re-analysis of the deposited data

Results flagged for a closer look

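For the 11 members given here the CPI-203 difference was not the same on the 2 days, by a test of the difference itself (edgeR quasi-likelihood, adjusted over 17355 genes). The change is the log2 fold change of WNT_CPI_ACT against WNT_ACT minus that of WNT_CPI against WNT, and Activin A and time cannot be told apart in it. Of these, 7 changed downward. COL8A1 changed by -3.98 (SE 1.07, adjusted p = 0.0323), but had at most 22 counts in a library. ITGB3 changed by -3.53 (SE 0.83, adjusted p = 0.0184), on 7 and 10 counts in WNT_ACT and 5 and 6 in WNT_CPI_ACT. LAMB3 changed by -2.8 (SE 0.77, adjusted p = 0.0358), on 13 and 46 counts in WNT_ACT and 6 and 6 in WNT_CPI_ACT. ITGA9 changed by -2.79 (SE 0.58, adjusted p = 0.0105), ITGA3 by -2.68 (SE 0.52, adjusted p = 0.00769), COL2A1 by -2.0 (SE 0.39, adjusted p = 0.00769) and LAMC1 by -1.18 (SE 0.14, adjusted p = 0.000485). The other 4 changed upward. COL23A1 changed by 1.65 (SE 0.41, adjusted p = 0.0241), ITGA6 by 1.23 (SE 0.33, adjusted p = 0.0323), ITGB1 by 0.88 (SE 0.26, adjusted p = 0.0477) and COL1A2 by 0.87 (SE 0.21, adjusted p = 0.0189). With E7_CPI replicate 1 left out of the fit, 8 members were called. COL2A1, ITGA3, ITGA9 and LAMC1 were called with each library of the 4 groups left out, and the others given here were not called without at least 1 library (largest adjusted p 0.103 for COL8A1, 0.0708 for ITGB3, 0.134 for LAMB3, 0.0932 for COL23A1, 0.116 for ITGA6, 0.148 for ITGB1 and 0.0712 for COL1A2).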

How the results depend on the processing

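Of 102 counts of called members under alternatives, 66 lay within 1.5 times the count reported and 36 did not. None of the 1126 fold changes recomputed for the 93 gene results named changed sign. Of these, 244 lost their call and 21 gained one. The share of all genes called was computed only for the main fit and for the fits without E7_CPI replicate 1, with and without the block. Counts under the other fits are therefore not read as results about the members. On 16 libraries the replicate block gave 1 member for WNT against E7, 35 for E7_CPI against E7, 35 for WNT_CPI against WNT, 15 for WNT_ACT against WNT_E7, 21 for WNT_CPI_ACT against WNT_ACT and 20 for the change between days. With the replicate block on 15 libraries, E7_CPI replicate 1 left out, the counts were 2 for WNT against E7, 37 for WNT_CPI against WNT, 15 for WNT_ACT against E7_ACT, 17 for WNT_ACT against WNT_E7, 25 for WNT_CPI_ACT against WNT_ACT and 24 for the change. The block on 16 libraries took away 0 of the calls named. On 15 libraries 1 was lost, that of ITGB2 in E7_CPI against E7, which was also lost on these libraries with no block (adjusted p 0.3). DESeq2 gave 15 for WNT_ACT against WNT_E7. With the compared groups alone in the fit, fewer libraries set the spread, and 0 members were called in each of the 3 comparisons at 48 h and 4 for the change. With a library left out, the counts ran from 12 to 19 for E7_CPI against E7, 14 to 22 for WNT_CPI against WNT, 0 to 6 for WNT_ACT against E7_ACT, 0 to 8 for WNT_ACT against WNT_E7, 4 to 9 for WNT_CPI_ACT against WNT_ACT and 5 to 9 for the change. These fits had no block, and in them a group with 1 library left is taken to have the spread of the rest. The cause of the other differences was not tested. Library totals without TMM, no filter and the stricter filter kept every count within 1.5 times. Depth limits the 11 members with at most 36 counts in every library: COL6A6, COL28A1, COL8A1, ITGAM, COL4A3, ITGA10, COL20A1, COL10A1, COL15A1, ITGA11 and ITGA8.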

Other observations

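Members also differed between the replicate numbers. Over the 7 groups other than E7_CPI, 27 of 74 differed by more than 0.5 on the log2 scale on average. The share of all genes was not computed, so the count is not read as particular to the members. Over 14059 genes, the standard deviation of the log2 difference between replicates was 0.506 to 0.652 in these groups. COL27A1, a fibrillar collagen, was higher in replicate 1 in all 7 groups, by 1.06 to 1.52: 56.8 and 23.5 CPM in E7, 70.3 and 25.4 in WNT_CPI and 87.99 and 30.6 in E7_ACT. COL10A1 (mean 1.33), a collagen of maturing cartilage, and COL7A1 (1.27), of the skin's anchoring fibrils, were likewise higher in replicate 1. COL1A1 was lower in replicate 1 in all 7 groups (mean -0.936), at 177 and 271 CPM in E7, 114 and 258 in WNT and 41.9 and 122 in WNT_ACT, as was COL12A1 (mean -0.991). In E7_CPI the differences of COL27A1, COL1A1 and COL12A1 were -0.0212, -0.0245 and -0.0588.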
